A study of Mus musculus with 18 samples.

Results

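The genes described here are the antigen-presentation genes of the mouse major histocompatibility complex (MHC) and their partners, 40 of the 21938 protein-coding genes of the GENCODE vM21 annotation (mm10). They were chosen by name. All 34 protein-coding genes on chromosome 17 whose symbol starts with H2- were taken, together with Tap1, Tap2, Psmb8 and Psmb9 from the same chromosome, B2m on chromosome 2 and Ciita on chromosome 16. The 38 genes on chromosome 17 lie between positions 33996017 and 37483552, a stretch of 3.49 Mb that holds 135 other protein-coding genes. One gene taken by its symbol alone, H2-Ke6, encodes a hydroxysteroid dehydrogenase and presents no antigen.

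MHC class I molecules pair a heavy chain with the light chain beta-2 microglobulin and show peptides from inside the cell to CD8+ T cells, and MHC class II molecules show peptides from ingested material to CD4+ T cells. Class I is made by most nucleated cells, whereas class II is kept to professional antigen-presenting cells and is low in resting macrophages until interferon-gamma induces the transactivator Ciita. H3K27me3, trimethylation of lysine 27 of histone H3, marks chromatin silenced by the Polycomb system, and H3K27ac, acetylation of the same lysine, marks active promoters and enhancers.

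Both marks were profiled by ChIP-seq in bone marrow-derived macrophages (BMDM), grown from the marrow of male mice with L929 supernatant as the source of macrophage colony-stimulating factor, and not stimulated further. WT mice carry the strain label C57BL6. mdx mice carry Dmdmdx-4Cv, a mutation in the gene for dystrophin that models Duchenne muscular dystrophy. mdxTLR4-/- mice carry the dystrophin mutation and also lack Toll-like receptor 4 (TLR4), and their label gives the strain as Bl6/Bl10. The methods of the study differ from this label and give a C57BL/6 background for WT, mdx and TLR4-/- mice. H3K27me3 was profiled with 2 ChIP and 2 input libraries for every genotype. H3K27ac was profiled with 2 ChIP libraries of WT, 2 of mdx and 1 of mdxTLR4-/-, beside 1 input with no genotype named. The labelled ages were 12 and 13 weeks for the WT H3K27me3 libraries, 14 and 15 for mdx, and 16 and 17 for mdxTLR4-/-. For H3K27ac they were 19 and 20, 21 and 22, and 23 weeks. The inputs were labelled 6 and 7 weeks for WT, 8 and 9 for mdx and 10 and 11 for mdxTLR4-/-, and 18 for H3K27ac. The labelled ages thus rise from each library to the next, also between input and ChIP of the same genotype. Whether they are the true ages of the mice was not tested. Genotype, labelled age and labelled strain cannot be told apart in these data. C57BL/6 and C57BL/10 mice are both known for the H2 b haplotype, and the haplotype of the mice was not tested.

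The replicates of a genotype were merged before peaks were called, so each mark and genotype has 1 peak list, in which every peak carries its number of ChIP reads. No value below has a spread between mice, and no difference between genotypes was tested for significance. The H3K27me3 lists hold 28143 to 41780 peaks with 7358418 to 10199918 reads in them. The H3K27ac lists are far shallower, with 12076 to 15665 peaks, 168487 to 274020 reads, a median peak of 8 to 10 reads and a smallest peak of 5. A start without an H3K27ac peak is one where no peak was called, and the lack of acetylation there is not shown. The labelled cell type was checked against marker genes. Of 10 macrophage genes fixed for this check, 10 in WT, 9 in mdx and 10 in mdxTLR4-/- had an H3K27ac peak within 5 kb of the start, and none was covered by H3K27me3 over at least 50% of its window. Csf1r had no start peak in mdx, against 162 reads in WT and 103 in mdxTLR4-/-. A start peak missing from the mdx list can thus be one that is strong in the other lists. The cause was not tested. Of 7 dendritic cell genes 1 had a start peak in each genotype, of 5 B cell genes 2, 1 and 1, and of 5 T cell genes 1 in each.

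The promoters of 5 genes are shown for the classical class I genes, a class II chain, the transporter and the class I light chain, which differ in their marks. The letters are those of RefSeq (GRCm38.p6), which had an entry for 35 of the 40 genes and none for Ciita, H2-Ab1, H2-Q1, H2-T24 and Tap2. Each line gives the 250 bases before the RefSeq start, 5′ to 3′ on the strand of the gene. Capitals mark matches, on either strand, to the motifs that the regulators of MHC genes are known to bind. The motifs are the Y box CCAAT, the X box, the interferon-stimulated response element (ISRE), the kappaB site GGGGATTCC, the GAS element TTCNNNGAA and the core of the cyclic AMP response element TGACG. The X box and the ISRE were searched as consensus sequences with free positions. H2-K1 (chr17:34000348-34000597, minus strand) and H2-D1 (chr17:35262844-35263093, plus strand) encode the classical class I heavy chains. H2-Aa (chr17:34287824-34288073, minus strand) encodes the alpha chain of the class II molecule I-A, Tap1 (chr17:34187306-34187555, plus strand) a subunit of the peptide transporter, and B2m (chr2:122147437-122147686, plus strand) the class I light chain.
H2-K1: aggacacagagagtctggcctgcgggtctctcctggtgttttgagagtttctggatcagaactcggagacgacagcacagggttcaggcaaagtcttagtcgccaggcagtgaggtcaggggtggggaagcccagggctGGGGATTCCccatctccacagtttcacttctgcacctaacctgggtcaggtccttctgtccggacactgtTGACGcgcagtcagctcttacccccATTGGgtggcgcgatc
H2-D1: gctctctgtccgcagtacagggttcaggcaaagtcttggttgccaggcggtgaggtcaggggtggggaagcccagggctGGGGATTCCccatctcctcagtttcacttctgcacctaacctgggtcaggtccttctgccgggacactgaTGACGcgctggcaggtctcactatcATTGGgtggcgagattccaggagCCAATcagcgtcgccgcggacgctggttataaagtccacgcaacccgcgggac
H2-Aa: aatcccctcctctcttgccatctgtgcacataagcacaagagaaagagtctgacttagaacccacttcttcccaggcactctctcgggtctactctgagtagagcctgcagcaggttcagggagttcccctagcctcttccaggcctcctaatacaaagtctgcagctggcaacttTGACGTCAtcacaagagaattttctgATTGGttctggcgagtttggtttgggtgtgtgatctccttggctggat
Tap1: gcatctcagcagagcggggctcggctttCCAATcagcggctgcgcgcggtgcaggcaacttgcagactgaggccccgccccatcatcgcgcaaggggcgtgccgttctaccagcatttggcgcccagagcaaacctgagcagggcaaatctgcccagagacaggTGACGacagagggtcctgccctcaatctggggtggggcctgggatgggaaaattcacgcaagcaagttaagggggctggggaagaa
B2m: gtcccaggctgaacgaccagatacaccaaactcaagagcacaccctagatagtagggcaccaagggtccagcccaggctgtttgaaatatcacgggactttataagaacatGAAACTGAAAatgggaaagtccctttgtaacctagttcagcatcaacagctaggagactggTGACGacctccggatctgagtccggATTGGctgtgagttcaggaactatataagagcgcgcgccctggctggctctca
H2-K1 and H2-D1 both held a kappaB site, a core TGACG and a CCAAT motif in that order. B2m held an ISRE on the reverse strand, at -139 to -130 from its start, followed by TGACG and CCAAT. In H2-Aa, TGACG matched on both strands at overlapping bases and CCAAT followed on the reverse strand.

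Over the 35 promoters, CCAAT was found in 30 (85.7%, against 33.9% of 32851 RefSeq promoters of the same length) and TGACG in 15 (42.9% against 17.8%). The rarer kappaB site was found in 4 (H2-K1, H2-D1, H2-Q6 and H2-Q7, against 0.21% of all promoters) and the X box in 4 genes of the class II region (H2-Eb1, H2-Eb2, H2-Ob and H2-DMb1, against 0.72%). The ISRE was found in 3 (2.98% of all) and TTCNNNGAA in 4 (7.02% of all). Several of the 35 promoters are near copies of each other, such as those of the H2-M10 genes, of H2-Q6 and H2-Q7, and of H2-K1 and H2-D1. Those of Psmb9 and Tap1 overlap on opposite strands. The same motif is thus counted repeatedly, and the shares do not rest on 35 separate sequences. A match describes letters only. The printed 250 bases of H2-K1, H2-D1, Tap1 and B2m lay wholly inside an H3K27ac peak and outside every H3K27me3 peak in all 3 genotypes, and those of H2-Aa lay outside the peaks of both marks in all 3.

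The H3K27me3 window of a gene was its body with 5 kb added upstream and 1 kb downstream, and a gene with at least 50% of this window under peaks was designated Increased (I), otherwise Unchanged (U). The study uses the same names by another rule, read intensity significantly above input, so the patterns below are not those of the study. Of the 40 genes, 19 (47.5%) were Increased in WT BMDM, 16 (40%) in mdx and 15 (37.5%) in mdxTLR4-/-. Over all protein-coding genes the shares were 16.6%, 16.3% and 14.9%, and among the 135 other genes of the same stretch of chromosome 17 they were 25.9%, 26.7% and 24.4%. The median coverage of the 40 genes was 30.6% in WT, 17.2% in mdx and 23.1% in mdxTLR4-/-, against 0 for all protein-coding genes in each genotype. In the order WT, mdx, mdxTLR4-/-, 15 genes had the pattern III, 3 genes IUU (H2-K1, H2-Oa and H2-M11), 1 gene IIU (H2-M10.5) and 21 genes UUU. The 36 genes with 1 designation in all 3 genotypes were 90% of the 40. The share was 96% for all protein-coding genes and 97.8% for the 135 neighbours. These sets hold more UUU genes (82.0% and 73.3%, against 52.5%), so the bases are unlike. Of the genes Increased in WT, 15 of 19 were III, beside 3068 of 3646 over all genes and 33 of 35 neighbours. In pooled chromatin a mark on fewer cells and a weaker mark in each cell cannot be told apart.

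**Figure D1:**
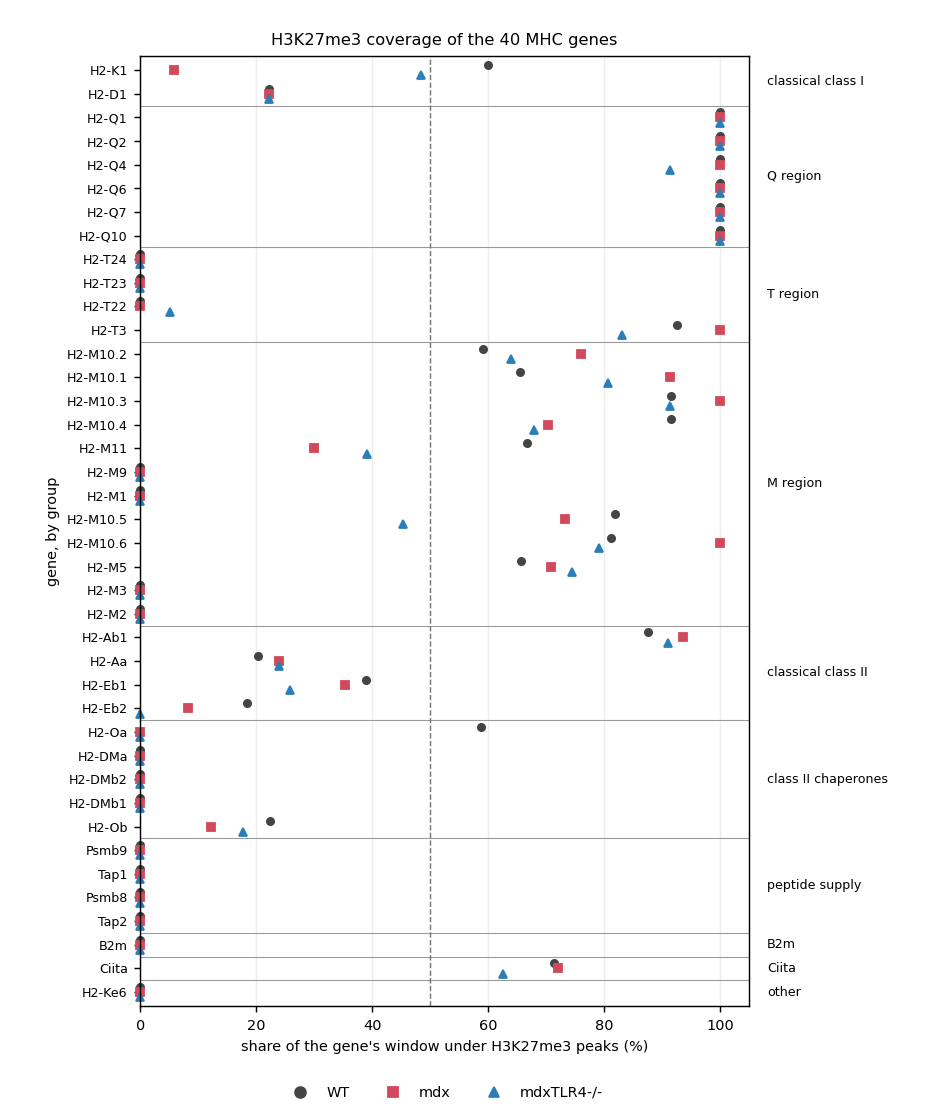
Share of each gene's window under H3K27me3 peaks (x axis, percent) for the 40 genes (y axis, by group and then by position), with 1 point per genotype from 1 pooled list and a dashed line at 50%. The 6 Q region genes lie between 91.4% and 100% in every genotype, the peptide supply genes and B2m lie at 0, and H2-K1 and H2-Oa show the widest gaps between genotypes.

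The 2 classical class I genes carried both marks. At H2-K1, 60.01% of the window was under H3K27me3 peaks in WT BMDM, 5.81% in mdx and 48.4% in mdxTLR4-/-, and among the 40 genes H2-Oa alone lay further below WT in mdx. WT and mdxTLR4-/- had the same peak over the gene body (chr17:33996801-33999800, from 0.55 to 3.55 kb past the start, over 5 of the 8 exons of ENSMUST00000025181.17), with 103 and 117 reads. No peak was called there in mdx. A further peak lay upstream, with 105 reads over 3.2 kb in WT, 64 reads over 0.6 kb in mdx and 96 reads over 2.0 kb in mdxTLR4-/-. The short mdx peak was dense, at 106.67 reads per kb against 32.81 in WT, and 99.9% of all mdx peaks were less dense.

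Together the H2-K1 peaks had 208 reads in WT BMDM, 64 in mdx and 213 in mdxTLR4-/-. The mdx minus WT difference in coverage at H2-K1 was -54.2 percentage points and kept its direction under the 4 alternatives run for it, between -60.01 and -50.9 points. At 48.4%, mdxTLR4-/- lay just under the 50% line, and H2-K1 was the only one of the 40 genes whose coverage was higher in mdxTLR4-/- than in mdx by at least 10 points. The sequence under these peaks is repeated elsewhere. Of the 50-base words of the H2-K1 window 86.0% occur once in the genome, but of those under the body peak only 76.8%, and 17.5% are also found in the windows of the Q region genes. Under the short mdx peak 52.5% of the words were unique and 33.2% were found in Q region windows. Reads were mapped with the default settings of Bowtie2, which place a read with several equally good positions at 1 of them. The part of misplaced Q region reads in these peaks was not tested.

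H3K27ac at the H2-K1 start had 14 reads in WT BMDM, 19 in mdx and 7 in mdxTLR4-/-. The exact 95% interval of the mdx to WT density ratio, which covers counting error only, ran from 0.829 to 3.76 and included 1. H3K27me3 at H2-D1 was alike in extent in the 3 genotypes, with 22.3% of its window covered in each by 1 peak of 2.4 kb over 3 of its 8 exons and 75, 76 and 92 reads. Here too the covered words were less unique than the window, at 76.4% to 78.7% against 90.6%. The start of H2-D1 had 2 H3K27ac peaks in every genotype, with 72 reads together in WT, 51 in mdx and 47 in mdxTLR4-/-. From 20.0% to 44.4% of the H3K27ac peak at the H2-D1 start lay under the H3K27me3 peak of the same genotype.

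The Q region encodes nonclassical class I molecules, among them the Qa-2 antigens of H2-Q6 and H2-Q7 and the secreted class I molecule of H2-Q10. H2-Q1, H2-Q2, H2-Q6, H2-Q7 and H2-Q10 were covered over 100% of their windows in all 3 genotypes, and H2-Q4 over 100% in WT and mdx and 91.4% in mdxTLR4-/-. They lay in 2 domains. The first (chr17:35275201-35370200, 95 kb) held H2-Q1 and H2-Q2 at 66.24 reads per kb in WT, 81.52 in mdx and 67.22 in mdxTLR4-/-. The second (chr17:35373801-35516800, 143 kb) held H2-Q4, H2-Q6, H2-Q7 and H2-Q10 at 116.04, 134.04 and 118.01 reads per kb.

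The second domain was among the strongest of the genome. Its main peak ranked 5 by reads of 28143 peaks in WT (16501 reads), 5 of 41780 in mdx (19087 reads) and 6 of 36488 in mdxTLR4-/- (16524 reads), while the median H3K27me3 peak held 23.7 to 28.3 reads per kb. It also holds the 2 least unique windows of the 40 genes. Only 42.6% of the 50-base words of the H2-Q7 window and 49.6% of those of the H2-Q6 window occur once in the genome, and these 2 windows share 26.1% to 27.6% of their words. Reads from repeated words cannot be assigned to 1 gene, and the separate values of H2-Q6 and H2-Q7 are uncertain.

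H2-Q4 was the exception inside the domain. It alone in the Q region had an H3K27ac peak at its start, with 17 reads in WT BMDM, 10 in mdx and 7 in mdxTLR4-/-. In WT and mdx this peak lay wholly under H3K27me3. In mdxTLR4-/- the H3K27me3 peak was interrupted between -0.22 and 0.78 kb from the start, and 77.8% of the H3K27ac peak lay under H3K27me3. From 90.7% to 97.9% of the words under the H3K27ac peak were unique.

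The T region showed the opposite arrangement. H2-T24, H2-T23 (Qa-1, a ligand of NKG2 receptors) and H2-T22 (a ligand of gamma-delta T cells) had H3K27ac start peaks in every genotype. H2-T24 had 77 reads in WT BMDM, 61 in mdx and 40 in mdxTLR4-/-, H2-T23 had 35, 22 and 11, and H2-T22 had 20, 16 and 13. All 3 had the genotypes in the same order, with the lowest count in the genotype that had 1 library in place of 2. H3K27me3 was at 0 at H2-T24 and H2-T23 and at H2-T22 in WT and mdx. The 1 peak at H2-T22 in mdxTLR4-/- was 0.6 kb long with 24 reads, and 51.7% of its words were unique.

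H2-T3, the thymus leukaemia antigen gene, was the Increased member of the T region. Its coverage was 92.5% in WT, 100% in mdx and 83.2% in mdxTLR4-/-, within a domain of 93 kb that held 53.9, 66.21 and 54.67 reads per kb. No H3K27ac peak lay near it in any genotype.

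The M region holds the H2-M10 genes, known from the vomeronasal organ, and H2-M3, which presents N-formylated peptides. Of its 12 genes the Increased ones numbered 8 for WT, 7 for mdx and 6 for mdxTLR4-/-, and H2-M3 was the only one with an H3K27ac start peak. H2-M3 had no H3K27me3 and 10, 15 and 13 H3K27ac reads. H2-M9, H2-M1 and H2-M2 had no peak of either mark in any genotype, and they were the only 3 of the 40 genes without one.

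Within the M region the direction of the difference varied from gene to gene. The mdx coverage exceeded that of WT by at least 10 points at H2-M10.1 (65.6% in WT, 91.4% in mdx), H2-M10.6 (81.2%, 100%) and H2-M10.2 (59.2%, 76.1%). It was lower at H2-M11 (66.7%, 30.0%) and H2-M10.4 (91.5%, 70.3%). In mdxTLR4-/- coverage was 80.6% at H2-M10.1, 79.1% at H2-M10.6, 64% at H2-M10.2, 39.1% at H2-M11 and 68.0% at H2-M10.4. H2-M10.5 went from 81.9% and 73.3% to 45.4%. The peaks over the H2-M10 genes and H2-M11 held 17.73 to 33.67 reads per kb. Restricted to peaks of at least 1.5 times the 1st percentile of density of their list, the mdx minus WT difference at H2-M10.4 turned from -21.2 to 13.3 points, that at H2-M11 became 0, and the mdxTLR4-/- minus WT difference at H2-M10.5 turned from -36.5 to 17.5 points. With equal numbers of peaks in the 3 lists the mdx minus WT differences widened to -68.9 points at H2-M10.4 and -66.7 at H2-M11.

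**Figure D2:**
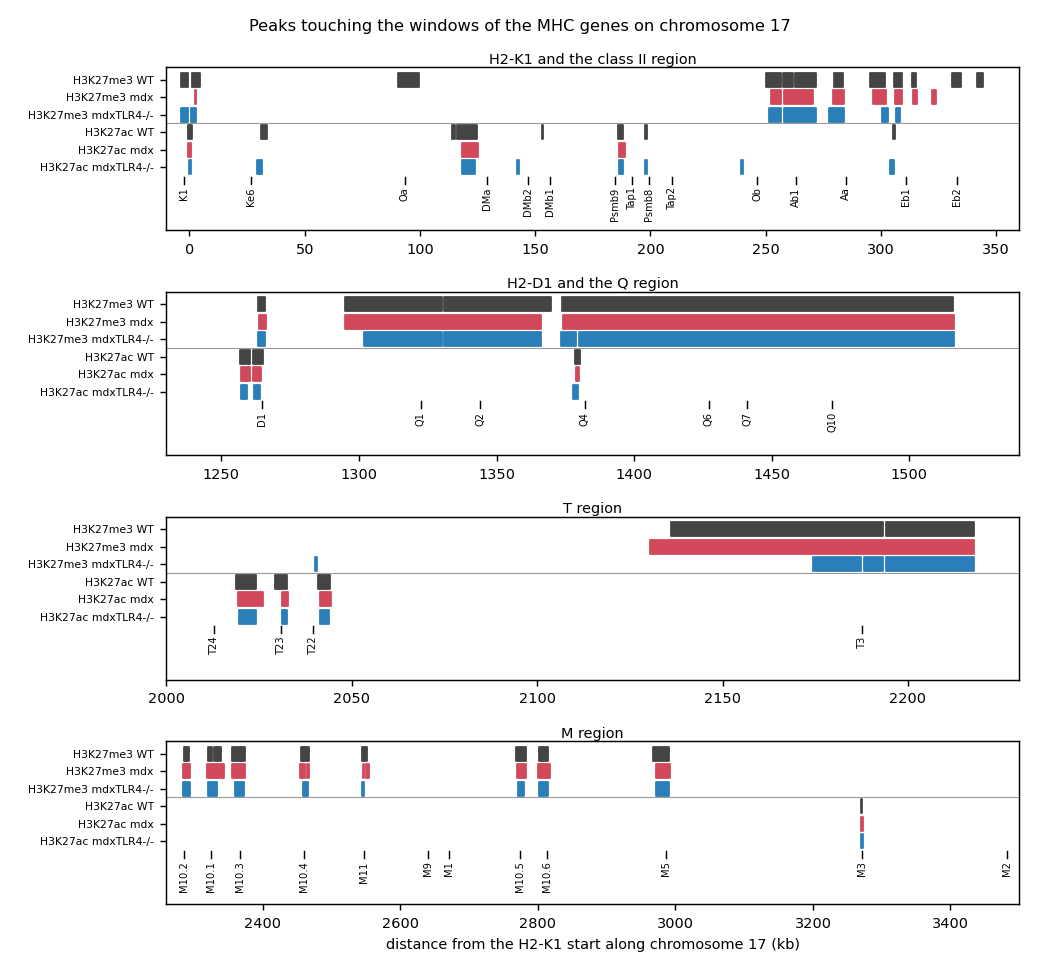
Peaks that touch the windows of the 38 genes on chromosome 17, as bars along the distance from the H2-K1 start (x axis, kb; the 4 panels have different scales), with 3 lanes of H3K27me3 above 3 lanes of H3K27ac and ticks at the middle of each gene, named without the prefix H2-. The shortest peaks are drawn wider than their length so that they can be seen. H3K27me3 fills the Q region and the H2-T3 domain in all 3 genotypes, and H3K27ac lies at H2-K1, the outermost H2-DMa start, the Psmb9 and Tap1 start, H2-D1 and H2-T24 to H2-T22.

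The class II molecule I-A showed no acetylation at its genes. At H2-Ab1, the beta chain, 87.6% of the window was under H3K27me3 peaks in WT BMDM, 93.7% in mdx and 91.0% in mdxTLR4-/-, and all 6 exons of ENSMUST00000040828.6 touched a peak. This transcript starts 5.52 kb past the outermost annotated start of the gene, and its own start lay under H3K27me3 in all 3 genotypes. In WT it lay at the very edge of a peak that began at 5.51 kb, after a gap from 4.51 kb. In mdx and mdxTLR4-/- it lay well inside 1 unbroken peak. The outermost start, from which distances are counted here, lay in a gap between -0.89 and 0.31 kb from the start in WT, -0.49 and 0.51 kb in mdx, and -0.89 and 0.71 kb in mdxTLR4-/-. At H2-Aa, 20.4%, 24.0% and 24.0% of the window was covered, by 1 peak over the 3′ part of the gene with 124, 188 and 144 reads, and the promoter printed above was free of both marks. Neither gene had an H3K27ac peak within 5 kb of the start in any genotype.

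The I-E beta chain genes lay in between. H2-Eb1 had 38.9% coverage in WT BMDM, 35.3% in mdx and 25.8% in mdxTLR4-/-, and an H3K27ac start peak of 7 reads in WT and 7 in mdxTLR4-/- with none in mdx. H2-Eb2 had 18.4% in WT, 8.28% in mdx and 0 in mdxTLR4-/-, and no H3K27ac. Around the start alone (5 kb upstream to 1 kb downstream) H2-Eb2 was 30.0 points higher in mdx than in WT, so the direction at this gene depended on the window.

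Ciita, the transactivator on which class II expression depends, was Increased in all 3 genotypes, at 71.4% in WT, 72.1% in mdx and 62.5% in mdxTLR4-/-, with no H3K27ac start peak. Its H3K27me3 peaks touched 15, 16 and 14 of the 20 exons of ENSMUST00000230450.1, in 2 stretches and, in mdx, a further peak of 38 reads from 44.54 to 45.94 kb past the start. The peak nearest the start began at -0.06 kb from it in WT, 0.94 kb in mdx and 3.14 kb in mdxTLR4-/-, so that the annotated start itself lay under H3K27me3 in WT alone. The longer stretch, of 22.2 to 23.8 kb, held 42.86, 56.01 and 44.01 reads per kb.

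**Figure D3:**
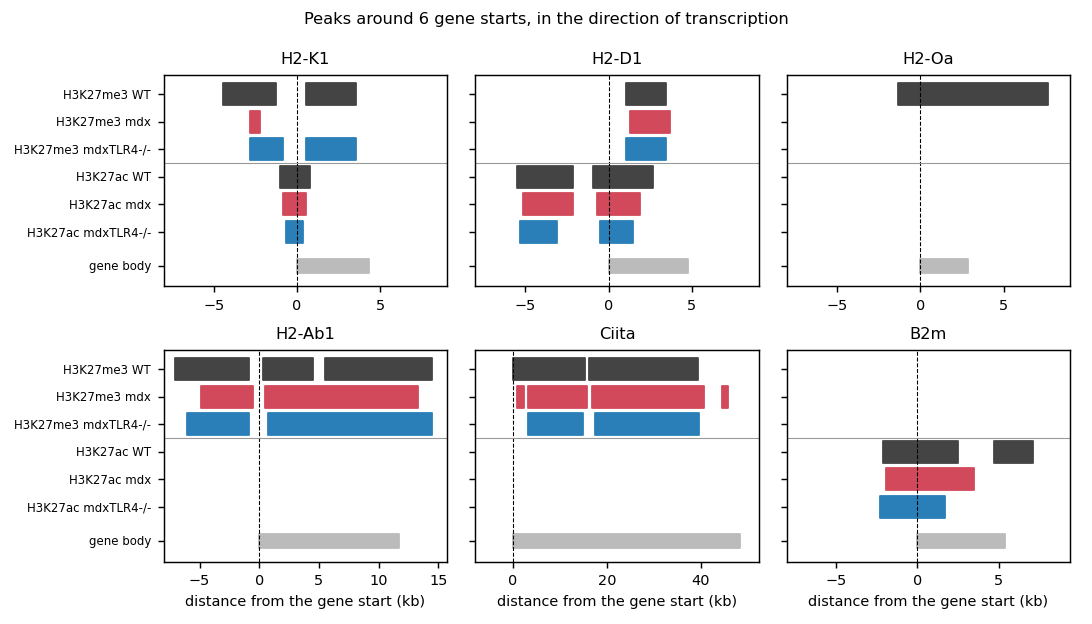
Peaks around the starts of H2-K1, H2-D1, H2-Oa, H2-Ab1, Ciita and B2m, as bars along the distance from the gene start in the direction of transcription (x axis, kb; scales differ), with 1 lane per mark and genotype and the gene body in grey. The H3K27me3 peak over the H2-K1 body is seen in WT and mdxTLR4-/- and not in mdx, the H2-Oa peak in WT alone, and the outermost annotated H2-Ab1 start lies in a gap in all 3 genotypes.

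The class II chaperones load peptides onto class II molecules in endosomes. H2-DMa, a chain of the peptide exchange factor H2-DM, had no H3K27me3. Within 5 kb of its outermost annotated start lay the most H3K27ac start reads of the class II region, with 81 in WT BMDM, 43 in mdx and 32 in mdxTLR4-/-. In WT these reads lay in 3 peaks and in the others in 1. The transcript with the most exons starts 3.29 kb past the outermost annotated start, inside the main peak of every genotype. Whether this acetylation belongs to H2-DMa or to a neighbouring gene was not tested. The partner chains had little, with 6 reads at H2-DMb1 in WT alone and 5 at H2-DMb2 in mdxTLR4-/- alone. H2-Oa and H2-Ob, which form the inhibitor of H2-DM, had H3K27me3 and no H3K27ac start peak in WT. H2-Oa was covered over 58.8% of its window in WT and 0 in mdx and mdxTLR4-/-. This 9.0 kb peak held 138 reads, 15.33 per kb, at the low end of the WT list, where the 1st percentile was 15.46. It was no longer there when only peaks of at least 1.5 times that percentile were kept, so the difference at H2-Oa rests on a peak at the detection limit of the WT list. H2-Ob had 22.4% in WT, 12.2% in mdx and 17.7% in mdxTLR4-/-, by a peak shared with the upstream window of H2-Ab1, and 5 H3K27ac reads in mdxTLR4-/- alone.

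The 4 peptide supply genes and B2m had no H3K27me3 in any genotype, and the same held for 10 other genes of the 40. Psmb9, a catalytic subunit of the immunoproteasome, and Tap1 overlap at their starts on opposite strands and share 1 H3K27ac peak, with 38 reads in WT BMDM, 34 in mdx and 24 in mdxTLR4-/-. Psmb8, another immunoproteasome subunit, and Tap2, the other transporter subunit, share a smaller one, with 8 reads in WT BMDM, 0 in mdx and 6 in mdxTLR4-/-. This peak lay 0.08 to 1.08 kb past the Psmb8 start in WT and at -5.73 to -4.73 kb from that of Tap2. B2m had the most acetylation of the 40 genes, with 127 reads in WT BMDM, 66 in mdx and 60 in mdxTLR4-/-. At its start the density was 26.09 reads per kb in WT, 12.22 in mdx and 15.0 in mdxTLR4-/-, a ratio to WT of 0.469 in mdx (exact interval 0.342 to 0.638) and 0.575 in mdxTLR4-/- (0.415 to 0.79). The median ratio over 6509 acetylated regions shared by the 3 genotypes was 0.857 and 0.84. None of these ratios is scaled to the reads in each H3K27ac list, 274020 in WT, 191629 in mdx and 168487 in mdxTLR4-/-. Such scaling would raise both B2m ratios, and more so that of mdxTLR4-/-, which had 1 library. Scaled intervals were not computed for B2m, so no reduction beyond depth is shown for mdxTLR4-/-.

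**Figure D4:**
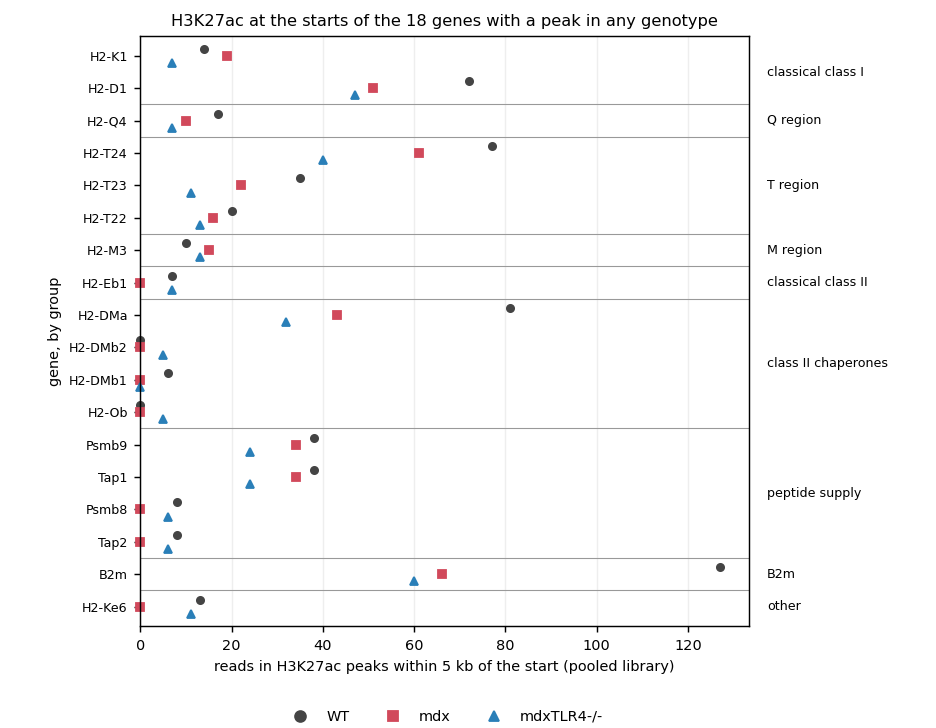
Reads in the H3K27ac peaks within 5 kb of the start (x axis, pooled libraries, not scaled for depth) for the 18 genes with such a peak in any genotype (y axis, by group), with 1 point per genotype. B2m, H2-DMa, H2-T24 and H2-D1 hold the most reads in WT BMDM, and the 7 genes whose peak is not called in every genotype hold at most 13.

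An H3K27ac peak within 5 kb of the start was found for 16 of the 40 genes in WT (40%), 11 in mdx (27.5%) and 17 in mdxTLR4-/- (42.5%). The shares over all protein-coding genes were 32.0%, 27.4% and 29.4%, and among the 135 neighbours 40.7%, 35.6% and 37.8%. Of these genes 11 had a peak in all 3 genotypes. Among the 11, the reads were fewer in mdx than in WT at 9 and more at H2-K1 and H2-M3, and fewer in mdxTLR4-/- than in mdx at all 11. These counts are not scaled for depth, and the list totals fell in the same order.

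Between mdx and WT, 5 genes lost the start peak (H2-Ke6, H2-DMb1, Psmb8, Tap2 and H2-Eb1) and 0 gained one, against 8.08% and 3.54% of all genes. Between mdxTLR4-/- and mdx, 0 lost it and 6 gained it (H2-Ke6, H2-DMb2, Psmb8, Tap2, H2-Ob and H2-Eb1), against 4.82% and 6.82%. Between mdxTLR4-/- and WT, H2-DMb1 lost it and H2-DMb2 and H2-Ob gained it, 1 and 2 genes against 7.0% and 4.45%. Among the 135 neighbours the start peaks lost and gained numbered 14 and 7, 11 and 14, and 11 and 7 for the same comparisons. Of the genes with a start peak in WT, mdx lacked it at 5 of 16, beside 1773 of 7015 over all genes and 14 of 55 neighbours. The 2 comparisons with mdx share the mdx list, and Psmb8 and Tap2 share 1 peak. H2-Ke6 had no H3K27me3, and its H3K27ac peak held 13 reads in WT BMDM and 11 in mdxTLR4-/-, at -5.94 to -3.34 kb and -3.94 to -1.74 kb from the start. The peaks that came and went held 6 to 13 reads in WT and 5 to 11 in mdxTLR4-/-, a size at or below which 62.9% to 73.0% of all H3K27ac peaks lie. With peaks of at least 10 reads alone, 1 gene lost its peak in mdx against WT, and 2 lost and 1 gained it in mdxTLR4-/- against mdx.

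For H3K27me3, coverage was lower in mdx than in WT by at least 10 points at 6 genes and higher at 3, against 5.51% and 4.9% of all genes, and with denser peaks alone 2 were lower and 5 higher. It was lower in mdxTLR4-/- than in mdx at 5 genes and higher at 1, against 7.73% and 2.52%. It was lower in mdxTLR4-/- than in WT at 7 and higher at 1, against 8.41% and 2.61%. For 28 of the 40 genes (70%) every pair of genotypes differed by less than 10 points. This held for 83.2% of all genes and 76.3% of the 135 neighbours. Genes with no coverage in WT were 16 of the 40, 13520 of all 21938 and 69 of the 135 neighbours. The shares in this paragraph thus rest on unlike bases. Among the 135 other genes of the stretch the counts lower and higher were 7 and 8, 20 and 7, and 17 and 5 for the same comparisons.

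Genes Increased for H3K27me3 seldom had an H3K27ac start peak. Of the Increased genes, 10.5% in WT, 6.2% in mdx and 6.7% in mdxTLR4-/- had an H3K27ac start peak, against 66.7%, 41.7% and 64% of the Unchanged ones. Over all protein-coding genes the shares were 4.7%, 3.2% and 2.8% against 37.4%, 32.2% and 34.1%. The Increased genes with a start peak were H2-K1 in WT and H2-Q4 in every genotype.

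Summed over the peaks of the 40 genes, H3K27me3 held 64.08 reads per kb in WT, 76.99 in mdx and 70.63 in mdxTLR4-/-, a ratio of mdx to WT of 1.20 (exact interval 1.18 to 1.22). Over 17103 H3K27me3 regions shared by the 3 genotypes the median ratio was 1.22. One Q region peak supplied 16501 of the 32155 WT reads, so these sums weigh the genes unevenly. They also depend on which peaks touch a window. At H2-T3 the touching peaks held 4655 reads in WT and 2216 in mdxTLR4-/-, while the whole domain held 4840 and 4658. Domain by domain, the mdxTLR4-/- to WT ratio was 1.015 for H2-Q1 and H2-Q2, 1.017 for H2-Q4 to H2-Q10 and 1.014 for H2-T3. Smaller regions lay on both sides of 1. Scaled to the reads in peaks of each list, the mdx to WT ratio of the 40 genes turned to 0.981 (0.967 to 0.996), so no direction can be given for the read density. For H3K27ac the density was 11.17, 9.41 and 8.52 reads per kb, a ratio of 0.843 (0.733 to 0.968) for mdx to WT and 0.763 (0.658 to 0.882) for mdxTLR4-/- to WT. With the same scaling these became 1.21 and 1.24.

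The other genes of the pathway were read from a list of 30 symbols, 28 of which matched the annotation. They were mostly acetylated and free of H3K27me3. A start peak was found for 26 in WT, 20 in mdx and 22 in mdxTLR4-/-, and 1 gene, Cd40, a costimulatory receptor, was Increased (96.6%, 88% and 81.1%). Cd74, the invariant chain of class II, had 19, 21 and 8 H3K27ac reads, and Tapbp, which holds class I molecules at the transporter, had 26, 43 and 13. Nlrc5, the class I transactivator, had 7 reads in WT and no peak in mdx or mdxTLR4-/-. Irf1, an interferon-induced factor, had 62, 55 and 35. Between mdx and WT 7 genes of the list lost the start peak and 1 gained it, against 8.08% and 3.54% of all genes. Between mdxTLR4-/- and mdx 1 lost it and 3 gained it (4.82% and 6.82% of all). Between mdxTLR4-/- and WT 5 lost it and 1 gained it (7.0% and 4.45%). The list holds more genes with a peak to lose. Of the genes with a start peak in WT, mdx lacked it at 7 of 26 in the list and 1773 of 7015 over all genes. mdxTLR4-/- lacked it at 5 of 26 and 1535 of 7015.

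The sequence of the 40 windows was mostly unique. The median share of 50-base words that occur once in the genome was 94.7%, from 42.6% at H2-Q7 to 100% at H2-Ke6, and 96.5% for the other genes of the stretch. It was below 80% at 8 genes, H2-DMb1, H2-Q4, H2-Q6, H2-Q7, H2-Q10, H2-T24, H2-T23 and H2-T22. Without them 7 of 32 genes had an H3K27ac start peak in mdx, and the H3K27me3 density ratio of mdxTLR4-/- to WT was 1.021 in place of 1.102. Leaving them out also removes the 143 kb Q region domain, with 16501 of the 32155 WT reads, so the change is not one of uniqueness alone.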

How the data were processed

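BMDM of 3 genotypes were profiled for H3K27me3 and H3K27ac in 18 libraries. According to the submitters' processing notes and the methods of the study, the authors used CASAVA 1.8, cutadapt 1.15, Bowtie2 2.3.4 and SICER 2.0, mapped reads to mm10, merged replicates and called peaks against input. The deposited values are counts of ChIP reads per peak, not scaled for depth or peak length and not corrected for input. By the methods, Bowtie2 ran with its defaults, which place a read with several equally good positions at 1 of them at random. Library depth is not given in the sources used here. All 6 lists were used, each as 1 pooled value per genotype, and 0 columns were left unmapped.

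Peak coverage of gene windows and peaks touching the 5 kb on either side of the gene start (minimum overlap 1 bp) were computed with Python 3.11.15, numpy 2.4.6, pandas 2.3.3 and scipy 1.17.1, with figures from matplotlib 3.10.9. Density ratios carry exact 95% intervals of the read counts, which cover counting error only. Uniqueness was the share of 50-base words found once, on either strand, in 2730871774 bases of GRCm38, counted with numba 0.67.0. Window coverage and touching peaks were recovered for 100% of 4000 simulated windows, and 95.8% of 2000 simulated ratios lay in their interval.

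The genes given with values were the classical, chaperone and peptide supply genes, B2m, Ciita, and every gene whose coverage differed by at least 10 points or whose H3K27ac start designation differed. H2-T24, H2-T23, H2-T22, H2-M3 and the Q region genes were added after their values were seen, as were the pathway genes named. The genes, lists and motifs were chosen with earlier results of these data known. Alternatives were peaks of at least 2 kb, equal numbers of peaks, denser peaks, windows around the start, other thresholds, other start windows and starts, peaks of at least 10 reads, 2 scalings and genes of at least 80% unique words. Read intensity over input was not analysed here.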

Additional observations from a re-analysis of the deposited data

How the results depend on the processing

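Of the 135 values recomputed for groups of genes, 101 stayed within 1.5 times the count or within the interval of the ratio, 29 moved further and 5 turned direction. Among the 101, the H3K27ac density ratio of mdxTLR4-/- to mdx went from 0.905 (0.771 to 1.063) to 1.029 when scaled to reads in peaks, so it has no direction. Coverage: with denser peaks 2 genes were lower and 5 higher in mdx than in WT, and 3 lower in mdxTLR4-/- than in WT. With the window around the start 5 were higher in mdx than in WT, and 8 lower and 4 higher in mdxTLR4-/- than in mdx. With a difference of 20 points 1 was higher in mdx than in WT, 2 were lower in mdxTLR4-/- than in mdx, and 4 lower and 0 higher in mdxTLR4-/- than in WT. H3K27ac: with peaks of at least 10 reads 10 genes had a start peak in mdxTLR4-/-, 1 lost it in mdx against WT, 2 lost and 1 gained it in mdxTLR4-/- against mdx, and 2 lost and 0 gained it against WT. With 5 kb upstream only the losses were 3, 2 and 2 and the gain in mdxTLR4-/- against WT 1, and with 1 kb on either side 3 lost it in mdx against WT. With unique genes 7 had a start peak in mdx and 0 lost it in mdxTLR4-/- against WT.

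H3K27me3 density ratios for mdx to WT, mdxTLR4-/- to mdx and mdxTLR4-/- to WT were 0.981, 1.272 and 1.248 when scaled to the list's reads in peaks, 1.032, 1.17 and 1.207 when set against its 1st percentile of density, and 1.24, 0.823 and 1.021 for unique genes. The unique genes leave out the longer Q region domain. The H3K27ac ratios scaled to reads in peaks were 1.205 for mdx to WT and 1.241 for mdxTLR4-/- to WT. Single genes turned direction with the window around the start (H2-Eb1, mdxTLR4-/- minus WT 8.88 points, and H2-Eb2, mdx minus WT 30 points) and with denser peaks (H2-M10.4, mdx minus WT 13.27 points, and H2-M10.5, mdxTLR4-/- minus WT 17.52 points). The cause was not tested.

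No paired analysis was possible because the authors merged the replicates before peaks were called, and no replicate was left out for the same reason. The H3K27ac lists are shallow, and a peak of fewer than 10 reads, as 44.1% to 57.5% of them are, sets most designations that differ. Repeated sequence limits the Q and T regions.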
